A study of Rattus norvegicus with 6 samples.

Results

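The transcripts described here are those of 10 enzymes of serine synthesis and folate-bound one-carbon metabolism, taken by gene symbol from a table of 33350 rat gene models. Each of the 10 symbols had a single row. They were read in 6 rat libraries whose label is PC12, a cell line from an adrenal pheochromocytoma that is used as a model of neuronal differentiation. The 3 EN libraries came from cells given exosomes, small secreted vesicles, of endothelial cells with high expression of NTN1 (netrin-1, a secreted axon guidance protein). The 3 EC libraries came from cells given exosomes of control endothelial cells, so both groups had received endothelial exosomes and neither was untreated. The labels give no dose or time, and they do not say that replicates were separate cultures, so each p-value reflects the spread of these libraries alone, which may be technical. Expression was given as FPKM, which divides read numbers by gene length and library size, on the Rnor_6.0 build.

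As background, cells make serine from the glycolytic intermediate 3-phosphoglycerate by the successive action of Phgdh, Psat1 and Psph in the cytosol. Serine hydroxymethyltransferases then move a carbon unit from serine to tetrahydrofolate, leaving glycine. Of the mitochondrial enzymes, Shmt2, Mthfd2 and Mthfd1l carry this unit toward formate, and Aldh1l2 oxidises formyl-tetrahydrofolate. A cytosolic set (Shmt1, Mthfd1, Tyms) uses folate-bound units for purines and thymidylate. In mammalian cells several of these genes are known targets of the stress-response transcription factor ATF4, and Tyms is known as a gene of proliferating cells.

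Of the 10 transcripts 9 were tested, of which 3 were higher in EN than in EC and none was lower. Over all tested genes, 7.24% were higher and 7.14% were lower. Shmt2 was 1.28-fold higher, Mthfd1l 1.21-fold and Phgdh 1.14-fold, as ratios of mean FPKM. The calls of Shmt2 and Mthfd1l held with each library left out in turn, whereas that of Phgdh held in 1 of 6 such fits. Shmt2 and Mthfd1l encode mitochondrial folate enzymes, and Phgdh encodes the first enzyme of serine synthesis. No cytosolic folate enzyme passed the main test. Mthfd1 passed in 1 of 10 alternatives that kept all libraries, a fit on read numbers (limma voom adjusted p = 0.022). It passed in 0 of 6 fits with a library left out. The voom fit put the median log2 change of all tested genes at 0.020, against -0.0028 in the main test. The mitochondrial enzyme Mthfd2 did not pass. Aldh1l2 was nearly unread in every library and was not tested.

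To show the sequence next to these genes, the 250 bases before the RefSeq start are given for the 3 transcripts that passed. Those of Shmt1, the cytosolic counterpart of Shmt2, are given beside them. Whether these cells used these starts was not tested. The sequences are RefSeq's on the GRCr8 build, which is not the build of the expression table, and run 5′ to 3′ on the gene's strand. Capitals mark matches, on either strand, to 5 short motifs: TGATGNAA (N is any base), the core of elements bound by ATF4 with C/EBP proteins; CACGTG, the E-box; GGGCGG, the GC box; CCAAT; and TTGGCGC, a core of E2F sites. No 2 of the marked matches overlap.
Shmt2, chr7:65249568-65249817, minus strand: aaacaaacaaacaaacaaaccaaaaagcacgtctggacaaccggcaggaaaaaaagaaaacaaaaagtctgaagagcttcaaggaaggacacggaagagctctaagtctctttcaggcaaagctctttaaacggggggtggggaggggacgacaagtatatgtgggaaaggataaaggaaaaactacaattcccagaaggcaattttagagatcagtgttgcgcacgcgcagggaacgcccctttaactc
Mthfd1l, chr1:42849174-42849423, plus strand: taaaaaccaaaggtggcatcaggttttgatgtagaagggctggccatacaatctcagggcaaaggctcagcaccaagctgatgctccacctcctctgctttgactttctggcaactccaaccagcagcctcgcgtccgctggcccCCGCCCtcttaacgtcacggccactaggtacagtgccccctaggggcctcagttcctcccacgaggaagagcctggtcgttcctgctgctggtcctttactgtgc
Phgdh, chr2:188624790-188625039, minus strand: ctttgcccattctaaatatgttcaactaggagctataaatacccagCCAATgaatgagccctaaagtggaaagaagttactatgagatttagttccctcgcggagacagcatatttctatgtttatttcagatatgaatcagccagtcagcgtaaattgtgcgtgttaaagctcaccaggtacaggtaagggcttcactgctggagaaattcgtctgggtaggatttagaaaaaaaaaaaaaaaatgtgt
Shmt1, chr10:45990342-45990591, minus strand: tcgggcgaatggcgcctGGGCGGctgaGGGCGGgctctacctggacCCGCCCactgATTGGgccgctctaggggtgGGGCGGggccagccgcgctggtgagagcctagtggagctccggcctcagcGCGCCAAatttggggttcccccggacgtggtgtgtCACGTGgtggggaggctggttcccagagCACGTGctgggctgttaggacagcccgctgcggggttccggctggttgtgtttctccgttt

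The Shmt2 window held none of the 5 motifs, those of Mthfd1l and Phgdh held 1 match each, and that of Shmt1 held 8. The match in Mthfd1l is a GC box on the reverse strand from -105 to -100, counted back from the start, and that in Phgdh is a CCAAT from -204 to -200. Shmt1 carries an E-box at -89 and another at -61. Such windows were found for 8 of the 10 genes, all but Mthfd1 and Aldh1l2. TGATGNAA was in none of these 8 windows and in 3.40% of the 33469 RefSeq windows of the same length. The E-box was in 1 of the 8 and in 5.59% of all, and the GC box was in 4 of the 8 and in 30.5% of all. CCAAT was in 4 of the 8 and in 34.0% of all. TTGGCGC was in Tyms and Shmt1 and in 1.78% of all. A match of letters is a description of the sequence and says nothing on binding in these cells.

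Whole reads worked back from the FPKM totalled 16654025 to 19626012 in the EN libraries and 15296193 to 16165804 in the EC libraries, so every EN library held more reads than any EC library. Mitochondrially encoded genes took 4.40 to 5.50% of reads in EN and 5.43 to 6.09% in EC. Ntn1 itself had 2 reads over the EN libraries and 2 over the EC libraries. The labelled cell type was poorly matched by its markers: of 13 chromaffin genes only 3 had a mean of at least 1 FPKM, led by Scg2 at 63.9 and Slc18a2 at 4.39 FPKM, while tyrosine hydroxylase (Th) averaged 1.47 FPKM and Pnmt and Hand2 had no read. Of 10 Schwann cell and glial markers, 9 reached a mean of 1 FPKM, led by S100b at 113 and Ngfr at 107 FPKM. The summed level of these 10 was 419 to 451 FPKM in EN and 476 to 484 FPKM in EC. Of 9 endothelial markers 3 reached a mean of 1 FPKM, and the summed level of the 9 was 9.12 to 9.88 FPKM in EN and 7.00 to 8.98 FPKM in EC, led by Egfl7 at 5.11 and Tie1 at 1.73 FPKM, with Cldn5 at 0. Of 9 fibroblast markers 3 reached a mean of 1 FPKM, led by Pdgfra at 64.8 and Pdgfrb at 8.47 FPKM, with sums of 72.4 to 75.6 FPKM in EN and 74.2 to 77.5 FPKM in EC, and Lum at 0. The part of these shifts and of depth in the results that follow was not tested. In such bulk libraries fewer cells of a type and less RNA per cell cannot be told apart.

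By level, the 10 transcripts fell into 8 that were abundant, 1 low and 1 nearly unread. Psat1 averaged 115 FPKM in EN and 114 FPKM in EC, above 94.4% of the 12198 gene models that averaged 1 FPKM or more. Phgdh followed at 107 ± 3.04 FPKM in EN and 93.8 ± 4.74 FPKM in EC (SD, n = 3 each), and then Shmt2. In EN the ranges of Psat1 and Phgdh overlapped, whereas in EC every Psat1 value was above every Phgdh value. Mthfd2, Tyms, Mthfd1, Psph and Mthfd1l lay between 45.1 and 58.5 FPKM in their mean over the 6 libraries. Within this set, Mthfd2 and Tyms overlapped in both groups, Tyms and Mthfd1 overlapped in EN only, Mthfd1 and Psph in EC only, and Psph and Mthfd1l in EN only. Shmt1 averaged 1.86 FPKM, above only 8.89% of the models at or over 1 FPKM.

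**Figure D1:**
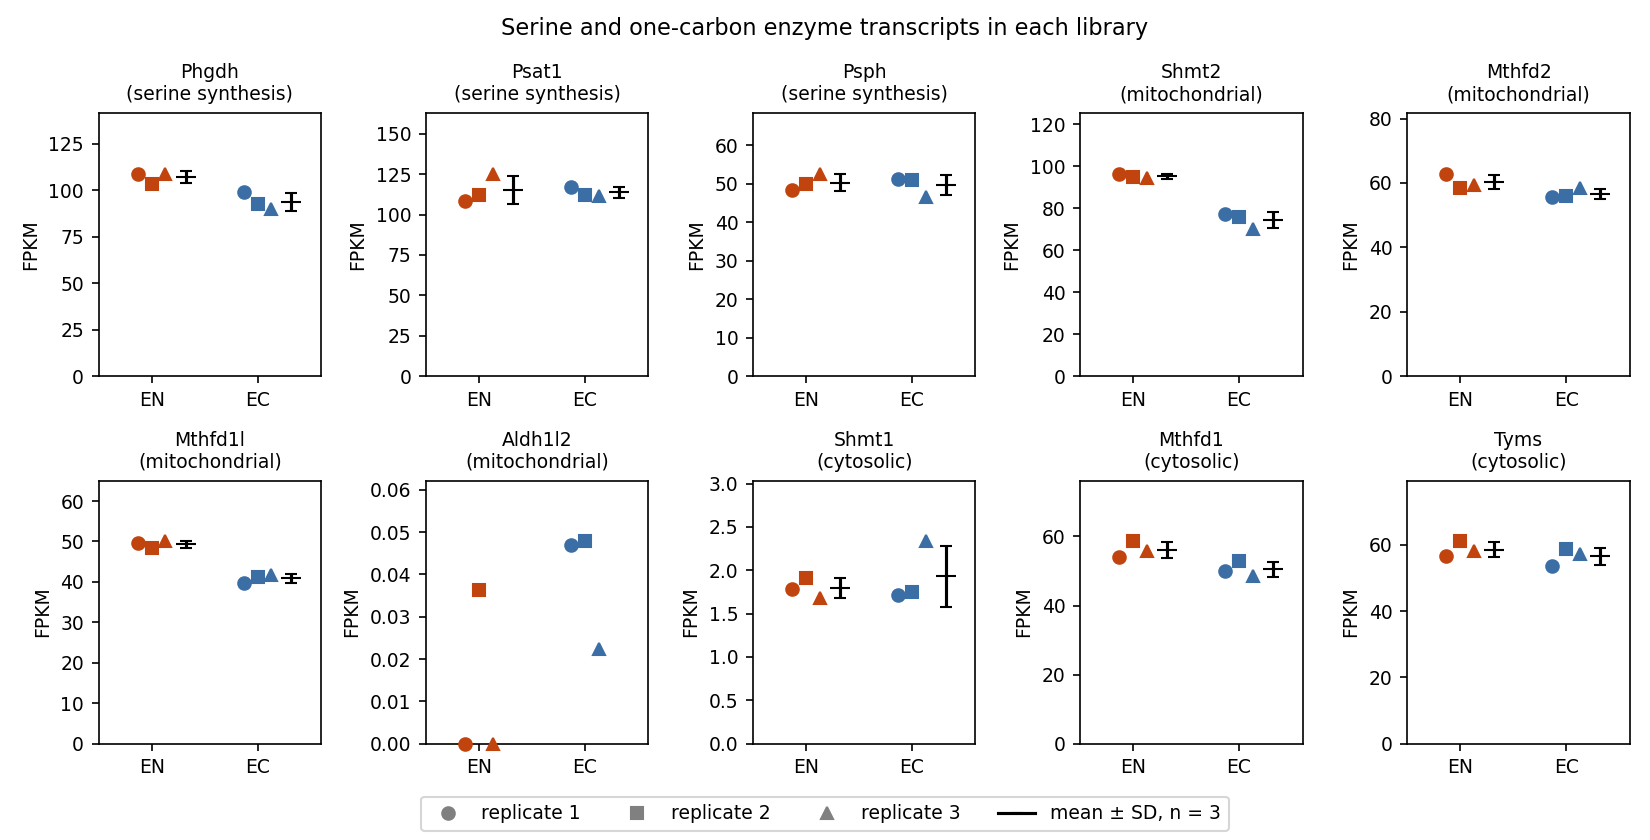
FPKM of each of the 10 enzyme transcripts in the 3 EN and 3 EC libraries, 1 panel a gene with its own scale from 0; symbols mark replicates and the black bar is the mean ± SD (n = 3, not drawn for Aldh1l2). All EN points lie above all EC points for Phgdh, Shmt2, Mthfd2, Mthfd1l and Mthfd1, and the groups overlap for the other 5.

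Setting EN against EC asks how transcripts of the treated cells differ when the exosomes come from netrin-1-rich endothelial cells. It was tested with limma on log2(FPKM + 1) over the 12198 genes that averaged 1 FPKM or more, with Benjamini-Hochberg adjustment over all of them and a threshold of 0.05. Of the 10 transcripts 9 entered the test. As background, 7.24% of tested genes were higher in EN and 7.14% were lower, together 14.4%, and the median log2 change of all tested genes was -0.0028. These shares, also where given below, are not matched for expression level. With a minimum mean of 5 FPKM the share higher in EN was larger, at 1020 of 9204 genes against 883 of 12198. At that minimum 3 of the 8 enzymes tested were higher. Among the 9, 3 were higher, 0 were lower and 6 missed the threshold, with a median log2 change of 0.09. At an unadjusted p under 0.05, 4 of the 9 passed, against 32.3% of all tested genes. limma voom on the whole reads called 4 of the 9 higher and 0 lower, against 11.4% of all tested genes higher and 7.87% lower. The groups did not overlap for 5 of the 9, each time with EN above, while 18.6% of all tested genes had every EN value above every EC value and 19.4% had every EN value below, together 37.9%. The number called over all genes varied with the library left out: it was 1754 with all 6, and 446 when EN replicate 1 was left out, 344 for EN replicate 2, 338 for EC replicate 2 and 408 for EC replicate 3, against 2059 for EN replicate 3 and 1616 for EC replicate 1.

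Among the mitochondrial folate enzymes, 2 of the 3 tested were higher, against 7.24% of all tested genes. Shmt2, the mitochondrial serine hydroxymethyltransferase (chromosome 7, 70824715 to 70829815, minus strand), had 96.5, 94.98 and 94.4 FPKM in EN replicates 1 to 3, against 77.3, 75.6 and 70.2 FPKM in EC replicates 1 to 3. The lowest EN library stood 17.1 FPKM above the highest EC library, and the EN libraries lay closer together than the EC libraries. The means were 95.3 ± 1.10 FPKM in EN and 74.4 ± 3.70 FPKM in EC (SD, n = 3 each). The log2 change was 0.35 with a standard error of 0.044 (limma adjusted p = 0.0068). That change was larger than those of 94.6% of tested genes. The adjusted p stayed between 0.012 and 0.037 with each library left out in turn.

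Mthfd1l, the mitochondrial enzyme that releases formate from formyl-tetrahydrofolate (chromosome 1, 40529045 to 40719391, plus strand), had 49.5, 48.4 and 50.1 FPKM in EN replicates 1 to 3, against 39.7, 41.2 and 41.7 FPKM in EC replicates 1 to 3. The groups were separated by 6.64 FPKM, and the spread within each was small. The means were 49.3 ± 0.857 FPKM in EN and 40.9 ± 1.06 FPKM in EC (SD, n = 3 each). The log2 change was 0.27 with a standard error of 0.038 (limma adjusted p = 0.0099). With 1 library left out the adjusted p was 0.020 to 0.049, the highest being without EC replicate 2. A small nuclear RNA model on the same strand lies within Mthfd1l and had no read.

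Mthfd2, which encodes the dehydrogenase and cyclohydrolase step between those of Shmt2 and Mthfd1l (chromosome 4, 115004448 to 115015965, minus strand), had 62.9, 58.5 and 59.5 FPKM in EN replicates 1 to 3, against 55.7, 55.9 and 58.5 FPKM in EC replicates 1 to 3. The EN libraries were all above the EC libraries, but by only 0.043 FPKM between the nearest pair. Its log2 change was 0.09 (95% interval -0.01 to 0.19) and it did not pass (limma adjusted p = 0.207). The interval includes 0 and ends below the estimate for Shmt2.

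Aldh1l2, which oxidises formyl-tetrahydrofolate in mitochondria (chromosome 7, 26375866 to 26425108, plus strand), was the exception in level. It had 0, 2 and 0 reads in EN replicates 1 to 3, against 2, 2 and 1 reads in EC replicates 1 to 3. A count of 0 allows up to 0.062 FPKM in EN replicate 1 and 0.065 FPKM in EN replicate 3 (3 reads, counting error only). All libraries were under that limit, so no difference was detectable at this depth and no fold is given.

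The serine synthesis enzymes were all abundant, and 1 of 3 was higher, against 7.24% of all tested genes. Phgdh, phosphoglycerate dehydrogenase (chromosome 2, 200484246 to 200513564, minus strand), had 109, 104 and 109 FPKM in EN replicates 1 to 3, against 98.9, 92.8 and 89.6 FPKM in EC replicates 1 to 3. The groups did not overlap and lay 4.60 FPKM apart. Its log2 change was 0.19 (SE 0.047, limma adjusted p = 0.041). This call was the least stable of the 3: it held in 1 of 6 fits with a library left out, that without EC replicate 1, and the adjusted p was 0.067 to 0.129 in the others (without EN replicate 1, 2 or 3 or EC replicate 2 or 3). It was also lost with no filter on low values (adjusted p = 0.073) and with no variance trend (adjusted p = 0.081).

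Psat1, phosphoserine aminotransferase (chromosome 1, 233124092 to 233145941, minus strand), had 108, 112 and 125 FPKM in EN replicates 1 to 3, against 117, 112 and 111 FPKM in EC replicates 1 to 3. EN replicate 3 was the highest of the 6 libraries and EN replicate 1 the lowest, so the EN values enclosed the EC values. Its log2 change was 0.02 (95% interval -0.12 to 0.16, limma adjusted p = 0.865), and it was -0.04 without EN replicate 3.

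Psph, phosphoserine phosphatase (chromosome 12, 30514050 to 30526561, plus strand), had 48.4, 49.9 and 52.6 FPKM in EN replicates 1 to 3, against 51.1, 51.0 and 46.6 FPKM in EC replicates 1 to 3. The groups overlapped, with EC replicate 3 the lowest and EN replicate 3 the highest. Its log2 change was 0.02 (95% interval -0.10 to 0.15, limma adjusted p = 0.820), and it was negative without EN replicate 3 (-0.01) or EC replicate 3 (-0.02).

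Of the 3 cytosolic folate enzymes none passed in limma, 1 had an unadjusted p under 0.05, near the 32.3% of all tested genes, and voom called 1 higher, against 11.4% of all tested genes. That one was Mthfd1, which interconverts formate and the folate-bound carbon units in the cytosol (chromosome 6, 99282850 to 99350340, plus strand). It had 54.1, 58.6 and 55.9 FPKM in EN replicates 1 to 3, against 50.1, 52.9 and 48.5 FPKM in EC replicates 1 to 3. The groups did not overlap, with 1.22 FPKM between them. Its log2 change was 0.15 (SE 0.049, 95% interval 0.04 to 0.27, limma adjusted p = 0.079), and 0.18 with voom (adjusted p = 0.022).

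Tyms, thymidylate synthase (chromosome 9, 121918947 to 121931564, minus strand), had 56.6, 61.1 and 58.0 FPKM in EN replicates 1 to 3, against 53.6, 58.8 and 57.1 FPKM in EC replicates 1 to 3. The groups overlapped, and its log2 change was 0.05 (95% interval -0.06 to 0.17, limma adjusted p = 0.508). Shmt1, the cytosolic serine hydroxymethyltransferase (chromosome 10, 47031050 to 47059216, minus strand), had 1.79, 1.91 and 1.68 FPKM in EN replicates 1 to 3, against 1.71, 1.75 and 2.34 FPKM in EC replicates 1 to 3. These values rest on 199 reads over the EN libraries and 185 over the EC libraries, and EC replicate 3 stood above the rest. Its log2 change was -0.06 with a wide 95% interval of -0.36 to 0.24 (limma adjusted p = 0.766), and without EC replicate 3 it was 0.03.

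**Figure D2:**
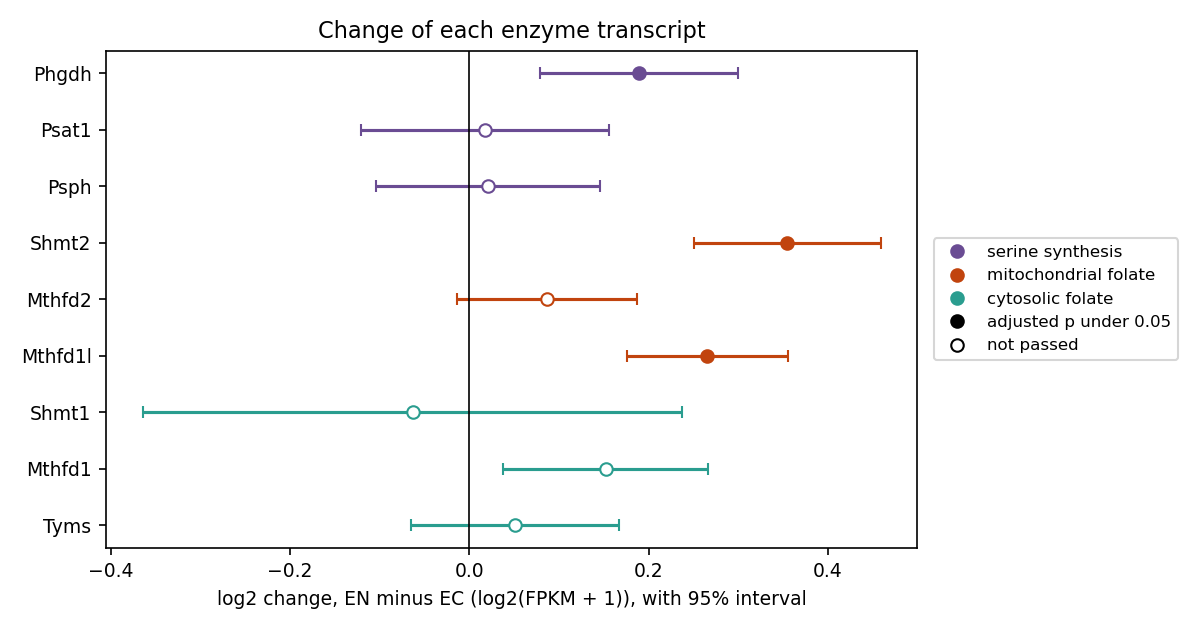
Log2 change (EN minus EC, on log2(FPKM + 1)) of the 9 tested transcripts with 95% intervals from limma, coloured by serine synthesis, mitochondrial or cytosolic folate enzymes; filled points passed an adjusted p of 0.05. Shmt2 and Mthfd1l stand highest at 0.35 and 0.27, and the interval of Shmt1 is the widest.

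Read by compartment, the 3 tested mitochondrial enzymes had a median log2 change of 0.27, the 3 cytosolic folate enzymes 0.05 and the serine synthesis enzymes 0.02. Summed over their genes, the mitochondrial enzymes had 209, 202 and 204 FPKM in EN replicates 1 to 3, against 173, 173 and 170 FPKM in EC replicates 1 to 3. The corresponding sums of the cytosolic folate enzymes were 112, 122 and 116 FPKM in EN and 105, 113 and 108 FPKM in EC. Those of the serine synthesis enzymes were 266, 266 and 287 FPKM in EN and 267, 256 and 248 FPKM in EC. The difference between the compartments was not tested, since the genes were chosen with earlier results known.

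Ratios of FPKM within a library show how the enzymes stood to each other, free of the scaling of that library; they are given as a description, with no test. Shmt2 over Mthfd2 was 1.53, 1.62 and 1.59 in EN replicates 1 to 3, against 1.39, 1.35 and 1.20 in EC replicates 1 to 3. Mthfd1l over Mthfd2 was 0.788, 0.826 and 0.841 in EN and 0.713, 0.736 and 0.714 in EC. In both ratios the groups did not overlap. Each sets a transcript that passed over one that did not, so neither is separate support for those calls. Shmt2 over Mthfd1l, the pair of transcripts that both passed, was 1.95, 1.96 and 1.88 in EN and 1.95, 1.84 and 1.68 in EC, with overlap. Phgdh over Psat1, successive enzymes of serine synthesis, was 1.00, 0.923 and 0.868 in EN and 0.843, 0.827 and 0.804 in EC. Here too the upper transcript passed and the lower did not. Mthfd1l over Mthfd1, a mitochondrial over a cytosolic enzyme, was 0.916, 0.825 and 0.896 in EN and 0.793, 0.779 and 0.860 in EC, with overlap. Shmt2 exceeded Shmt1 in every library, by 49.6-fold to 56.1-fold in EN and by 30.1-fold to 45.1-fold in EC.

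**Figure D3:**
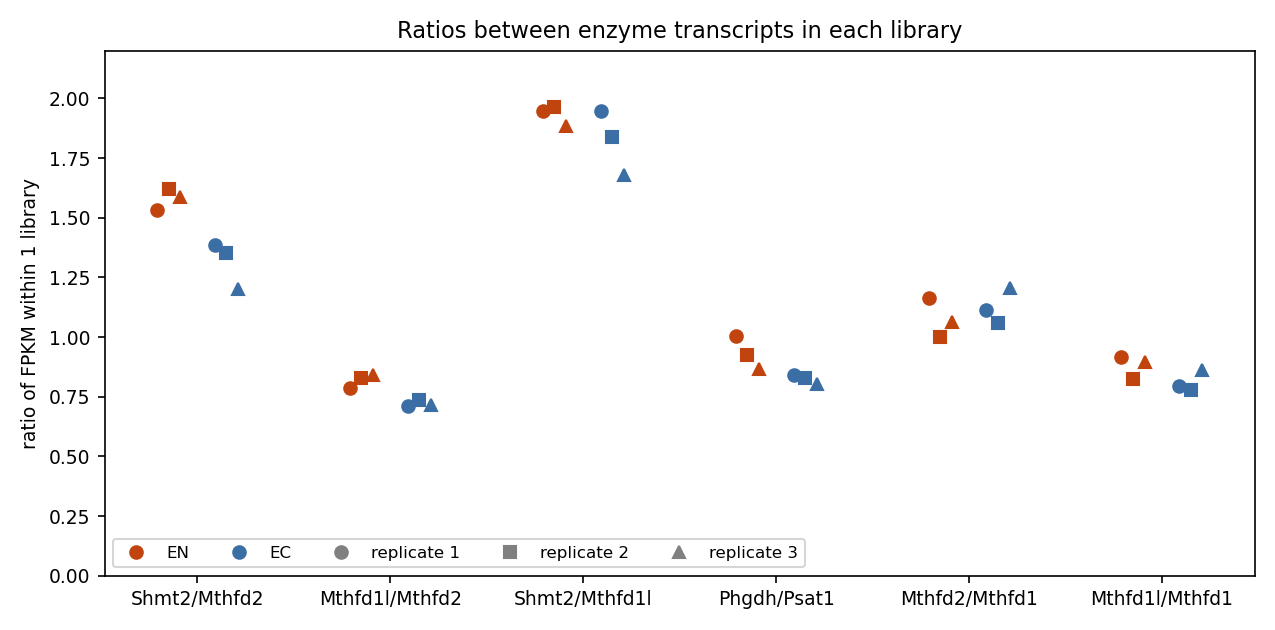
Ratio of FPKM between pairs of enzyme transcripts within each library (vertical axis, no unit), with the EN libraries left of the EC libraries and symbols for replicates. Shmt2/Mthfd2, Mthfd1l/Mthfd2 and Phgdh/Psat1 lie higher in every EN library than in every EC library, and the other 3 ratios overlap. The 3 that lie higher each set a transcript that passed over one that did not.

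Around these enzymes, 41 further genes of the folate cycle, glycine and serine breakdown, the methionine cycle, transsulfuration and transport were in the table, of which 30 were tested. Of these, 2 were higher (6.67%, against 7.24% of all tested genes) and 1 was lower (against 7.14% of all tested genes). The other 27 missed the threshold, and the median log2 change of the 30 was -0.01. Leaving out EN replicate 1 or 2 or EC replicate 2 or 3 gave 1 call among them, and a minimum mean of 5 FPKM gave 5. None of the 9 other tested folate cycle genes passed in limma or voom, with 2 at an unadjusted p under 0.05 (against 32.3% of all tested genes), and their median was -0.10. Of 7 tested genes of glycine and serine breakdown none passed in limma or voom, nor at an unadjusted p under 0.05, and glycine decarboxylase (Gldc), named after its value was seen, was under the expression minimum.

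In the methionine cycle, which receives methyl groups from folate, 1 of 7 tested genes was higher and 1 lower. Of all tested genes 7.24% were higher and 7.14% lower. Voom called 1 of the 7 higher and 2 lower, against 11.4% of all tested genes higher and 7.87% lower. An unadjusted p under 0.05 was found for 3 of the 7, against 32.3% of all tested genes. Ahcy, the hydrolase of S-adenosylhomocysteine, had 90.2, 88.7 and 96.7 FPKM in EN replicates 1 to 3, against 74.7, 74.1 and 69.2 FPKM in EC replicates 1 to 3 (log2 change 0.33, SE 0.049, limma adjusted p = 0.010). It passed with each library left out in turn (adjusted p of 0.018 to 0.046). Its relative Ahcyl1, which is known as a regulator of inositol trisphosphate receptors, went the other way, with 87.7, 93.2 and 97.6 FPKM in EN and 105, 109 and 107 FPKM in EC (log2 change -0.21, limma adjusted p = 0.032). Ahcyl1 held in 2 of 6 fits with a library left out, those without EN replicate 3 or EC replicate 1, with adjusted p up to 0.114.

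Among 7 tested folate and serine transporters 1 was higher, against 7.24% of all tested genes. This was Slc1a5, a carrier of glutamine, serine and other neutral amino acids, with 44.5, 42.8 and 42.7 FPKM in EN replicates 1 to 3, against 39.8, 35.0 and 36.2 FPKM in EC replicates 1 to 3 (log2 change 0.22, limma adjusted p = 0.040). The groups did not overlap, but the call held in 1 of 6 fits with a library left out, that without EC replicate 1, with adjusted p up to 0.125.

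Atf4, Myc and a list of known ATF4 targets were read beside the enzymes, as 25 genes in the table of which 22 were tested. Of these, 6 were higher (27.3%, against 7.24% of all tested genes), 0 were lower and 16 missed the threshold, with a median log2 change of 0.12; at an unadjusted p under 0.05 there were 12 of 22, where the share of all tested genes was 32.3%, and voom called 9 higher and 0 lower, where it called 11.4% of all tested genes higher. The arginine transporter gene Slc7a1 had 36.2, 36.6 and 37.2 FPKM in EN replicates 1 to 3, against 30.4, 30.1 and 30.9 FPKM in EC replicates 1 to 3 (log2 change 0.26, limma adjusted p = 0.0094). The stress-response genes Cebpb, Trib3 and Sesn2 rose by log2 changes of 0.34, 0.33 and 0.27, with limma adjusted p of 0.014, 0.026 and 0.029. With a library left out, the calls of Slc7a1 and Cebpb held in 4 of 6 fits and those of Trib3 and Sesn2 in 2 of 6. The highest adjusted p was 0.0501 for Slc7a1 (without EC replicate 2) and 0.059 for Cebpb (without EC replicate 3). It was 0.095 for Trib3 and 0.088 for Sesn2 (both without EN replicate 2). Of the 10 alternatives that kept all libraries, Trib3 passed in 9 and Sesn2 in 8. Leaving out EN replicate 1 gave 2 genes called, and leaving out EN replicate 2, EC replicate 2 or EC replicate 3 gave 1.

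The transcripts of the regulators themselves did not pass. Atf4 had 252, 256 and 226 FPKM in EN replicates 1 to 3, against 256, 249 and 243 FPKM in EC replicates 1 to 3 (log2 change -0.03, 95% interval -0.16 to 0.10, limma adjusted p = 0.730), and 0.03 without EN replicate 3. ATF4 is known to be controlled largely at translation, which these libraries do not measure. A role of ATF4 or Myc in the changes listed here was not tested. Myc had 20.7, 20.8 and 17.1 FPKM in EN and 21.1, 23.7 and 22.0 FPKM in EC (log2 change -0.18, 95% interval -0.38 to 0.02, limma adjusted p = 0.188).

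DNA replication genes, read beside Tyms, had 1 of 22 higher (4.55%, against 7.24% of all tested genes) and 0 lower. The other 21 missed the threshold, and the median log2 change of the 22 was 0.03. An unadjusted p under 0.05 was found for 10, against 32.3% of all tested genes. With voom 6 were called higher and 0 lower, against 11.4% of all tested genes higher. The 1 gene that passed in the main test was Fen1, a flap endonuclease. It had 25.6, 24.4 and 20.2 FPKM in EN replicates 1 to 3, against 19.0, 15.3 and 17.7 FPKM in EC replicates 1 to 3 (log2 change 0.41, limma adjusted p = 0.047). A gene model on the opposite strand overlaps Fen1. Fen1 did not pass without EN replicate 1 or 2 or EC replicate 2 or 3, with adjusted p up to 0.141, nor on the TPM scale, with an adjusted p of 0.053. Without EC replicate 1, 3 replication genes were called higher.

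**Figure D4:**
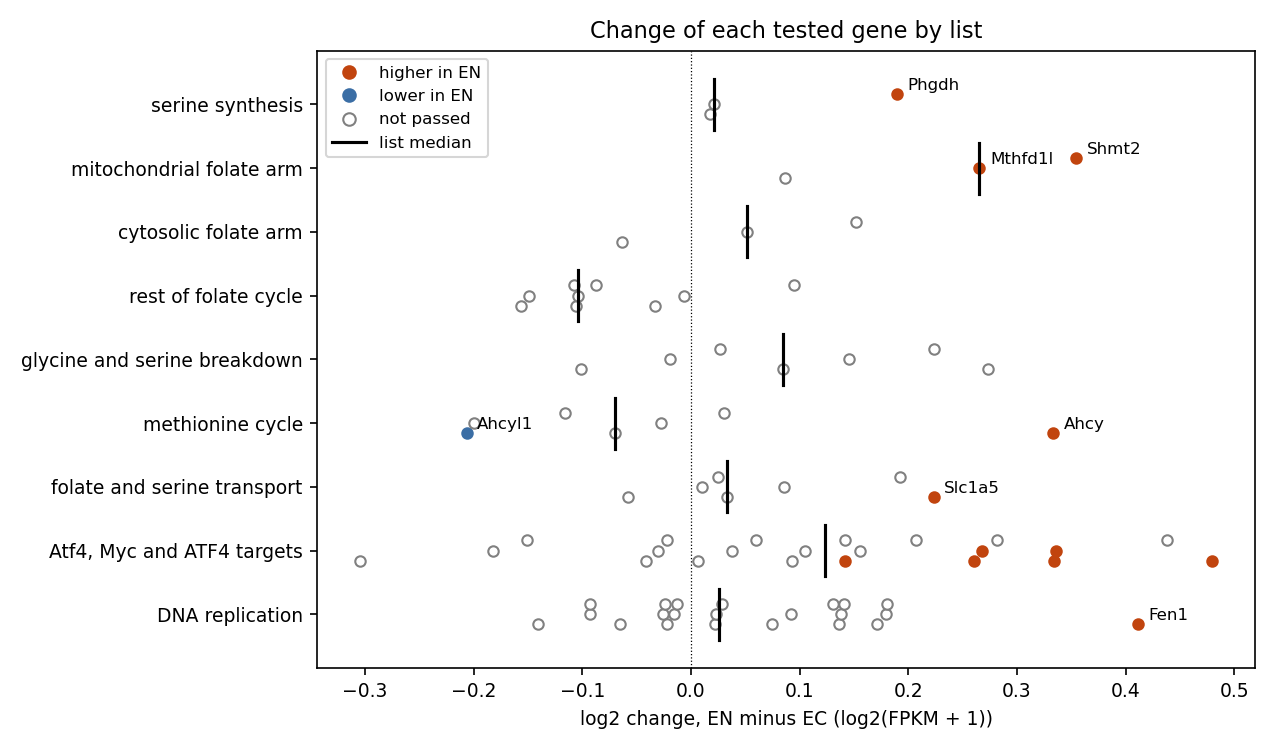
Log2 change (EN minus EC, on log2(FPKM + 1)) of every tested gene in the 3 groups of enzymes, in 4 lists of neighbouring pathway genes and in 2 lists of stress-response and replication genes; filled points passed an adjusted p of 0.05 and black lines are medians. The median of the mitochondrial folate enzymes lies at 0.27, and the list of Atf4, Myc and ATF4 targets has its 6 filled points on the higher side.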

How the data were processed

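RNA of 6 libraries (3 EN, 3 EC) was prepared with Trizol and an Illumina TruSeq kit from 1 ug, per the labels' protocols. The authors deposited FPKM for 33350 gene models. HISAT2 2.0.5 and Rnor 6.0 were used, per the submitters' processing notes; the counting tool, annotation release, strand setting and filters are not given in those sources. For 100% of non-zero values the product of FPKM and gene length was a multiple of a fixed step (within 0.001 of a whole number), which gave whole reads. Their totals were 15296193 to 19626012 a library, with no column of another sample. Models without a symbol held 0.829% of reads and stayed in the test.

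limma 3.58.1 in R 4.3.3 was run on log2(FPKM + 1) with a variance trend, group as the only term, two-sided, for genes averaging 1 FPKM or more. Log2 changes on this scale understate those of low genes, Shmt1 above all. The members and lists were chosen with earlier results of these data known. Of 141 list entries 137 matched by symbol, 2 through RefSeq's older symbols, and 2 were unmatched. Named genes are all 10 enzymes, up to 4 genes of each other list with the smallest adjusted p past the threshold, Atf4, Myc, 1 more gene that is not reported here, Ntn1 and the 2 highest markers of each cell type; any other gene was chosen after its values were seen. No 2 libraries were identical: a chi-square of their reads, divided by its degrees of freedom, was 3.99 to 9.57 within groups and 11.3 to 25.1 between groups. Alternatives were other pseudocounts, filters, scalings, a replicate block, no trend, each library left out and, added after seeing the data, voom on the whole reads. A check for a sample far from its group needs 4 samples a group and was not made.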

Additional observations from a re-analysis of the deposited data

How the results depend on the processing

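Shmt2 and Mthfd1l kept their direction and their side of the threshold in all 16 alternatives, with log2 changes of 0.31 to 0.38 and 0.25 to 0.29. Over the 9 tested enzymes and their 143 alternative values, 131 kept direction and call, 7 lost a call (all for Phgdh), 1 gained one (Mthfd1 with voom) and 4 changed sign. With a library left out, the log2 change was -0.044 to 0.060 for Psat1, -0.023 to 0.048 for Psph, -0.116 to 0.033 for Shmt1 and -0.064 to 0.026 for Atf4, none of them past the threshold. The 3 enzymes called became 2 to 3 with a library left out. Over all genes the 1754 called became 338 to 2059 with a library left out, 866 with no filter on low values and 1019 with no variance trend; the cause was not tested. The 3 other pathway genes called became 1 to 4, 5 with a mean of at least 5 FPKM (2 higher and 3 lower) and 1 with no variance trend. The 6 ATF4-list genes called became 1 to 7, and 2 with no filter. The 1 replication gene called became 0 to 3, 0 with no filter or no trend, 3 with a mean of at least 5 FPKM, on the TPM scale, with median centring and with quantile normalization, and 6 with voom. The median log2 change of all tested genes lay between -0.0065 and 0.020 under the scalings tried, the highest being with voom. The fit with a replicate block called 1907 genes and the same number of enzymes, 3; deviations of same-numbered libraries correlated at 0.088, -0.095 and -0.020 over genes, so the numbers were not taken to pair the libraries. The 2 planned count-model tests were not run, because the deposited unit is FPKM. Depth limits Aldh1l2, with 2 reads in EN and 5 in EC, and Shmt1.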
